A study of Macaca mulatta with 16 samples.

Results

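Heat shock proteins and their DNAJ partners are molecular chaperones, proteins that help other proteins to fold, refold or be degraded. They were taken here as all probe sets of the human U133A and U133B arrays whose platform gene symbol, alone or within a list of symbols, is an HSPA, HSPB, HSPD, HSPE, HSPH, DNAJA, DNAJB or DNAJC name with its number, or begins with HSP90A or HSP90B. HSPBP1 and HSPBAP1 were left out. This rule, which uses no measured value, found 161 probe sets of 69 genes among 44792 non-control probe sets, 95 of 22215 on U133A and 66 of 22577 on U133B. A probe set is a group of short probes for one stretch of transcript, and 148 of the 161 carried 1 symbol and 13 carried several.

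The arrays held RNA of extraocular muscle, the muscle that moves the eye, from adult rhesus macaques. The 4 groups were the orbital (outer) layer and the global (inner) layer, both dissected out, and the whole lateral rectus and whole medial rectus, each with 2 arrays on U133A and 2 on U133B. By the labels, messenger RNA of the layers went through T7 amplification before the usual Affymetrix steps, and whole muscle went through those steps alone, so dissection and amplification cannot be told apart from layers against whole rectus. No genotype, strain or treatment is named, nothing says which arrays share an animal, and monkey RNA was measured with probes designed on human sequence.

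HSP70 proteins bind exposed stretches of unfolded proteins and release them as they turn over ATP. DNAJ proteins (HSP40s) bring clients to HSP70 and start that cycle, and HSP110 proteins exchange the nucleotide. HSP90 finishes the folding of kinases, receptors and, in striated muscle, myosin. The chaperonin HSPD1 encloses proteins in mitochondria, and small heat shock proteins hold unfolded proteins without ATP, several of them at the Z-discs and intermediate filaments of muscle fibres.

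Values are intensities in the authors' units after scaling each array to a common mean, and differences are on the log2 scale. Intensities of different probe sets are not comparable, since probes bind with unequal strength. Of the 161 probe sets, 116 had a mean at or above the median intensity of their table (653.9 on U133A and 802.7 on U133B) in at least 1 comparison and were tested there, 70 on U133A and 46 on U133B. The other 25 on U133A and 20 on U133B were too dim for any comparison, and 2 of these, 1 for HSPD1 and 1 for DNAJC12, lay at the floor of low values on all 8 arrays. A difference was called where limma, fitted over all probe sets of a table, gave an adjusted p under 0.05. With 2 arrays per group and array type, precision is low. Since no label says that arrays came from separate animals, the p-values take in only how these samples spread, which may be technical. They may be too small, since dissected regions are not tied to animals. In bulk tissue, fewer cells of a type and less RNA per cell cannot be told apart.

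Other measures moved with the groups, and their part in the results was not tested. The 3' to 5' signal ratio of ACTB was 2.84 to 5.87 on layer arrays and 0.512 to 1.04 on whole rectus arrays, and the median intensity was 476 to 587.5 against 788 to 851.8 on U133A. This ACTB ratio was also higher on orbital than on global arrays. It was 5.297 and 5.871 against 2.838 and 2.876 on U133A, and 5.289 and 4.434 against 3.535 and 3.613 on U133B. The same ratio of GAPDH overlapped between the layers on both array types. Between layers and whole rectus it overlapped on U133A but not on U133B. On U133A, all 8 muscle fibre markers were above the floor, with a sum of 363280.4 to 450637 in the layers and 418793 to 556557 in whole rectus. All 6 smooth muscle and pericyte markers summed to 34534 to 38307 in the layers and 15919 to 28199 in whole rectus, and 5 of 6 immune markers to 2108 to 2578 and 3011 to 7030.4. The sums of 6 endothelial markers (13132 to 20323 and 16096 to 23335), 6 fibroblast and matrix markers (193221 to 260166 and 206409 to 267980.5), 4 adipocyte markers (1120 to 6605 and 3105 to 4889), 2 of 4 red blood cell markers (19874 to 28574 and 9021 to 32946), 1 of 4 Schwann cell markers (72.1 to 115 and 123 to 368) and 7 immediate early genes (11381 to 17531 and 12951 to 14151) are given for layers and whole rectus in that order. No marker measured was at the floor on all arrays. On U133B, where fewer markers were measured, 4 fibroblast markers summed to 12827 to 18304 in the layers and 6399 to 7726 in whole rectus, 1 muscle fibre marker to 9663 to 19415 and 4916 to 7497, and 1 endothelial marker to 198 to 286 and 500.5 to 757. Between the layers on U133A, sums higher on both orbital than on both global arrays were those of fibroblast (228094 and 260166 against 193221 and 195415), smooth muscle (36891 and 38307 against 34534 and 36438) and immediate early genes (13901 and 17531 against 11381 and 12660.3). Lower on the orbital arrays were the sums of adipocyte (1120 and 2156 against 3352 and 6605) and endothelial markers (13132 and 14004 against 16574 and 20323) and the 1 Schwann cell marker. Some sums were lower on both medial than on both lateral rectus arrays. On U133A these were immune (3011 and 3174 against 6201 and 7030.4) and red blood cell markers (9021 and 12992 against 26114 and 32946). Muscle fibre markers (418793 and 458452 against 468502 and 556557) and immediate early genes (12951 and 14094 against 14142 and 14151) were too. On U133B it was the 1 endothelial marker (500.5 and 603 against 740 and 757). All other sums overlapped between these muscles. On U133A, the array titled orbital layer replicate 1 has a source name of global layer, and on U133B the source name of global layer replicate 1 names no layer. Titles were followed, and counts without these arrays are given with each comparison of layers.

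Between the orbital and the global layer, no chaperone probe set passed the test. On U133A, 0 of 65 tested members were called, against 39 of 9532 probe sets in all (0.409%), and on U133B 0 of 38, against 2 of 9511 (0.021%). At an unadjusted p under 0.05 there were 8 and 5 members, against 905 and 738 of all probe sets. Of the 65 members on U133A, 36 were higher and 29 lower in the orbital layer, with a median log2 difference of 0.09 against -0.04 over all probe sets; on U133B 19 were higher and 19 lower, with medians of 0.03 and 0.03. On U133A this balance moved with single arrays. Without global layer replicate 1, 27 of 65 members were higher with a median of -0.08, and without global layer replicate 2, 42 of 64 with a median of 0.22. The groups did not overlap for 26 members on U133A (41.9% of all probe sets) and 16 on U133B (38.6%), and every orbital array lay at least 2-fold from every global array for 1 member (1.02%) and 2 members (1.22%). The median 95% confidence interval of a member reached a 1.60-fold difference to either side of its estimate on U133A and 1.69-fold on U133B, so smaller differences could not be told from none. These intervals are not adjusted over all probe sets as the calls are. Larger differences also went uncalled, up to 1.19 on U133A and 2.49 on U133B on the log2 scale. Without the U133A array with conflicting labels, and without the U133B array whose source names no layer, 0 members were called.

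Between medial and lateral rectus, likewise, 0 of 64 members on U133A and 0 of 41 on U133B were called, as were 0 of 11906 (0%) and 0 of 11836 (0%) of all probe sets. With an unadjusted p under 0.05 there was 1 member on each array type, against 333 and 406 of all probe sets. The groups did not overlap for 20 members (28.6% of all probe sets) and 16 members (32.1%), and 0 members on U133A (0.58%) and 1 on U133B (1.66%) were at least 2-fold apart in every pairing.

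Layers and whole rectus differed at many probe sets, among chaperones as in the whole tables. On U133A, 20 of 65 members were called (30.8%), 9 higher and 11 lower in the layers. Over all probe sets, 48.7% were called, 18.7% higher and 30.1% lower. On U133B, 16 of 40 members were called (40%), 9 higher and 7 lower, against 42.8% of all probe sets, 20.5% higher and 22.3% lower. The groups did not overlap for 18 members on U133A (43.9% of all probe sets) and 14 on U133B (40.7%). In 4 (5.43%) and 3 (6.2%) members, every layer array lay at least 2-fold from every whole rectus array. The members' median was 0.11 and 0.02, above the -0.18 and -0.21 of all probe sets, and with quantile normalization these 4 medians were 0.04, -0.02, 0.00 and -0.04. With the filter at the 75th percentile the members' median on U133A was no longer above that of all probe sets (0.13 against 0.15), while on U133B it was (0.47 against 0.26). The share of higher among all calls on U133A rose from 38.3% to 50.4% with quantile normalization and to 59.5% with that filter, and on U133B from 47.8% to 62.4% with that filter. Quantile normalization ended 12 of the 36 member calls. Without orbital layer replicate 1 on U133A 17 members were called, and without global layer replicate 1 on U133B 15. In all, 19 of the 36 calls, 10 on U133A and 9 on U133B, held under every alternative that tested the probe set. The plot of differences by class shows calls in both directions in each class that had several.

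**Figure D1:**
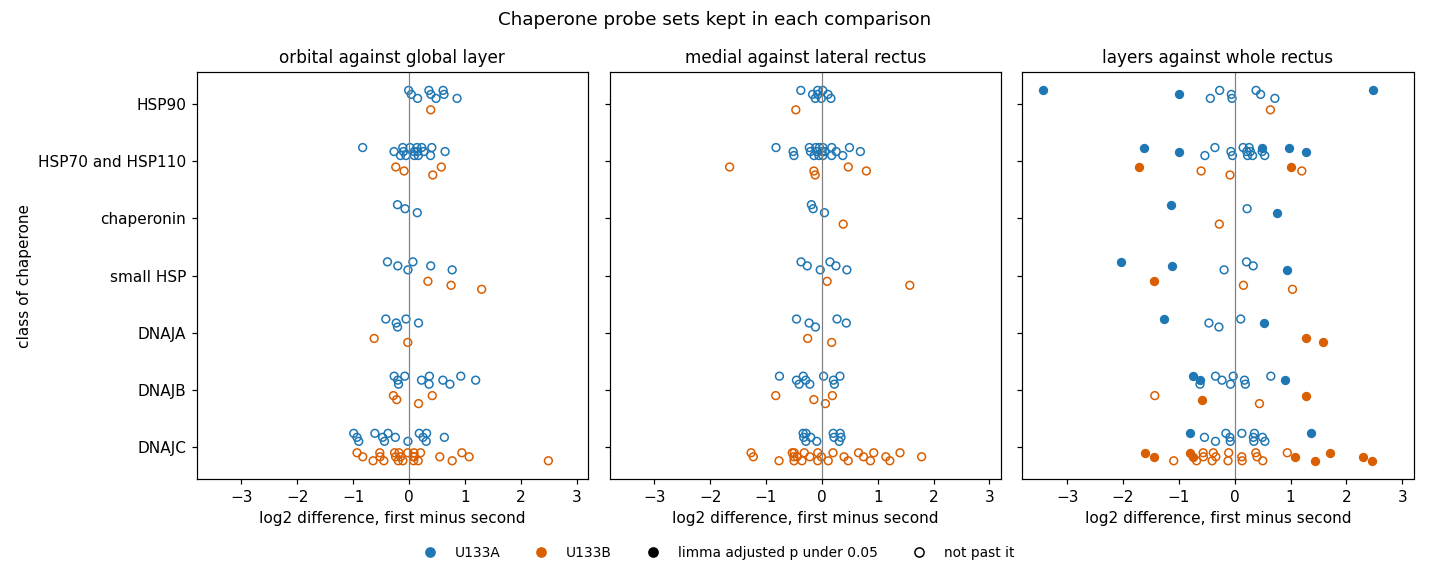
Log2 differences of the tested chaperone probe sets (points) by class for the 3 comparisons, with filled points called by limma at an adjusted p under 0.05. Filled points stand only in layers against whole rectus, 20 on U133A and 16 on U133B, on both sides of 0.

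The HSP90 class had 10 probe sets on U133A and 1 on U133B, all tested in layers against whole rectus, with 1 called higher and 2 lower. Beside this and the class counts below stand the shares of all probe sets called in that comparison. These were 48.7% on U133A (18.7% higher and 30.1% lower) and 42.8% on U133B (20.5% higher and 22.3% lower). HSP90AA1 encodes the stress-inducible cytosolic form. Its probe set 211969_at read 36526 and 37450.0 on orbital, 21837 and 38283 on global, 5629.9 and 6483 on lateral rectus and 4927 and 6685 on medial rectus arrays. Every layer array lay above every whole rectus array, and the difference was 2.47 (2.04 to 2.91, 95% interval; 5.55-fold; limma adjusted p = 1.14e-05). The other 3 HSP90AA1 probe sets gave -0.44, -0.27 and 0.46, none called, and of these 210211_s_at was lower on all layer arrays. So 1 of 4 probe sets of this gene was called.

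HSP90AB1 encodes the constitutive cytosolic form. Its probe set 214359_s_at read 7683 and 8429 on orbital, 3742 and 5262 on global, 11236 and 13409.8 on lateral and 9446 and 14371 on medial arrays. Whole rectus was above both layers without overlap, with a difference of -1.00 (limma adjusted p = 0.00635), and the orbital arrays were above the global ones. That layer difference was 0.86 (0.25 to 1.47; limma adjusted p = 0.359) and was not called. The other HSP90AB1 probe set, 200064_at, is on both array types. On U133A it read 22953 and 32394 on orbital, 12369 and 25249.5 on global, 19814 and 26168 on lateral and 20790.1 and 25510.1 on medial arrays, and layers and whole rectus overlapped (-0.06; -0.61 to 0.49; limma adjusted p = 0.857). On U133B the same probe set read 60416 and 66649, 38275 and 61419, 33698 and 52093 and 31435 and 29217 in that order of groups, again with overlap (0.64; 0.10 to 1.17; limma adjusted p = 0.0524).

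HSP90B1 encodes GRP94, the HSP90 of the endoplasmic reticulum. Its probe set 216450_x_at, whose suffix marks probes that may bind other transcripts, read 75.5 and 135 on orbital, 671 and 153 on global, 2351 and 2136 on lateral and 2082 and 2807 on medial arrays. Both orbital arrays were at the floor of 146.5, so the fitted difference of -3.43 (limma adjusted p = 0.000224) depends on that floor. The probe set was not tested when a whole rectus array was left out, since its mean then fell below the filter. The other HSP90B1 probe set, 216449_x_at, gave 0.72 and was not called. Probe set 200599_s_at, annotated to MIR3652 and HSP90B1, read 11753 and 16767 on orbital, 8239 and 10276 on global, 7414 and 11143 on lateral and 9051 and 7744 on medial arrays. Its orbital arrays lay above the global ones, but the difference of 0.61 (-0.01 to 1.22; limma adjusted p = 0.529) was not called. Between the layers, 8 of the 9 tested HSP90 probe sets on U133A were higher in the orbital layer (median 0.39), 3 of them without overlap, and 0 were called; over all probe sets 46.1% were higher and 41.9% did not overlap. Without global layer replicate 1, 6 of the 9 were higher and the median was 0.11.

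**Figure D2:**
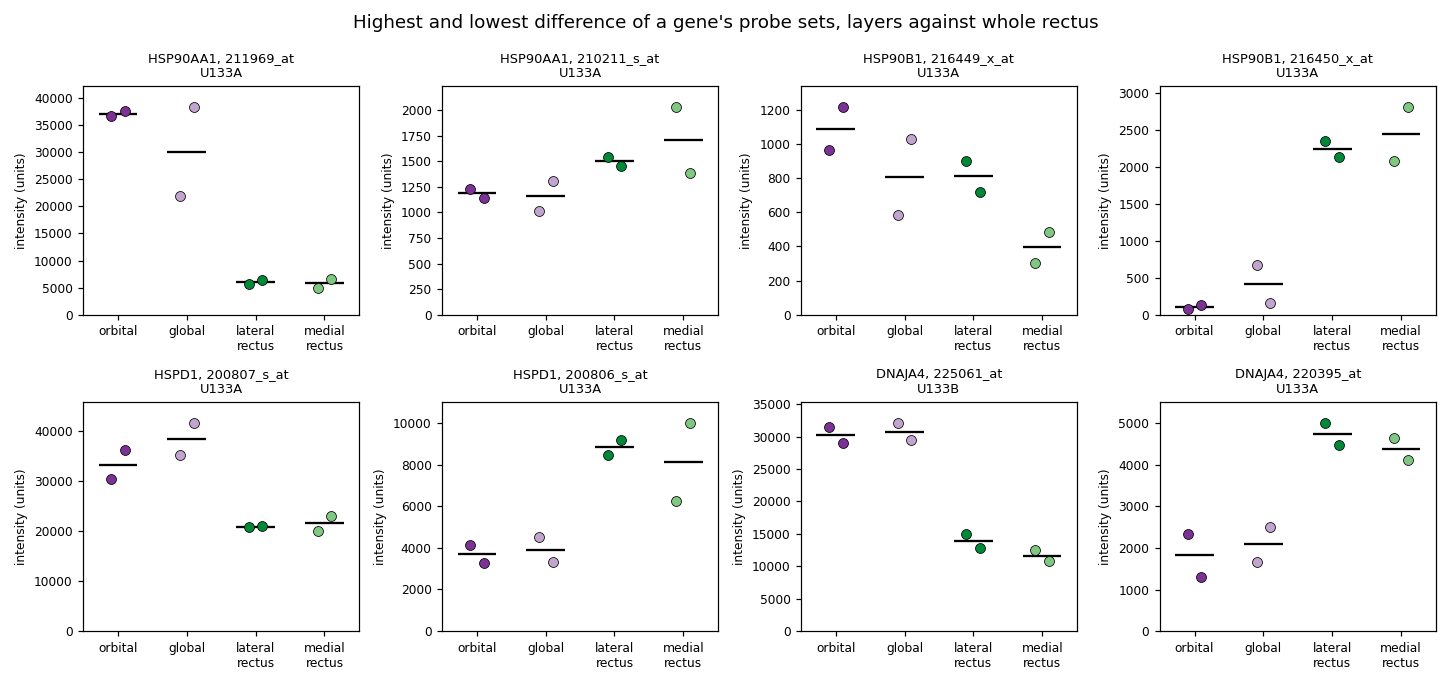
Intensity on each U133A or U133B array (points) and group mean (bars) for the probe sets of HSP90AA1, HSP90B1, HSPD1 and DNAJA4 with the highest and the lowest log2 difference. For HSP90AA1, HSPD1 and DNAJA4, layer arrays lie above whole rectus in one probe set and below it in the other, of which HSP90AA1 210211_s_at was not called. HSP90B1 216449_x_at overlaps.

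The HSP70 and HSP110 class had 26 probe sets on U133A, 17 of them tested in layers against whole rectus with 3 called higher and 2 lower. It had 9 on U133B, 5 tested with 1 called each way (all probe sets: 48.7% called on U133A and 42.8% on U133B). HSPA2 is an HSP70 best known from testis and also present in skeletal muscle. It read 821 and 679 on orbital, 722 and 534 on global, 2389 and 1959 on lateral and 2473 and 1667 on medial arrays. All layer arrays were at least 2-fold below all whole rectus arrays, and HSPA2 fell by 1.62 on the log2 scale (-2.12 to -1.13; limma adjusted p = 0.000245). HSPA14, a ribosome-associated HSP70, read 4924 and 3553 on orbital, 4635 and 4081 on global, 2052 and 1661 on lateral and 1372 and 2046 on medial arrays. It was higher in the layers by 1.28 (2.43-fold; limma adjusted p = 0.000393) with no overlap, while its 2 tested U133B probe sets gave -0.08 and -0.60 and were not called.

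HSPA8 encodes HSC70, the constitutive cytosolic HSP70. Its probe sets also carry the symbols of small nucleolar RNAs that lie within the gene, SNORD14C and SNORD14D. Probe set 210338_s_at read 26502 and 27032 on orbital, 17926 and 29164 on global, 41151 and 61733 on lateral and 36392 and 65571 on medial arrays of U133A, lower in the layers by -1.00 (limma adjusted p = 0.00303). Probe set 224187_x_at on U133B read 108226 and 78931, 94211 and 126077, 53080.0 and 51158 and 46314 and 49592 in the same order, higher in the layers by 1.01 (limma adjusted p = 0.00281). Neither overlapped, so these 2 probe sets moved in opposite directions, but the second difference was -0.14 and not called with quantile normalization. The other 2 probe sets with these symbols gave -0.04 and 0.28 and were not called.

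HSPA1A and HSPA1B are the classic heat-inducible HSP70 genes, near-identical copies that these probe sets do not separate. Probe set 200799_at of both genes read 2652 and 2155 on orbital, 2069.6 and 3174 on global, 1657 and 1129 on lateral and 2003 and 683 on medial arrays. It was higher in the layers by 0.97 (limma adjusted p = 0.0215), a call lost without global layer replicate 2 (0.85) or lateral rectus replicate 2 (0.91). Probe set 202581_at of the same genes read 4925 and 9835, 4501 and 8856, 9496 and 10812 and 6974 and 7209 in that order. Each layer held 1 high and 1 low array, and layers and whole rectus overlapped (-0.35; limma adjusted p = 0.289). The medial arrays lay below the lateral ones, -0.52 (-0.98 to -0.05; limma adjusted p = 0.999), the one U133A member with an unadjusted p under 0.05 in that comparison. Probe set 200800_s_at, annotated to HSPA1L, HSPA1B and HSPA1A, was not called. Its log2 values were 12.63 and 12.56 on orbital, 11.73 and 12.69 on global, 11.69 and 11.97 on lateral and 12.14 and 11.87 on medial arrays. Only global layer replicate 1 lay within the whole rectus range. Of 5 tested immediate early genes on U133A, which respond to tissue handling, JUNB (-0.91) and IER2 (-0.88) were called lower in the layers. The other 3 were higher in the layers, by up to 0.65, and none of them was called. The sum over the list overlapped. The part of these genes in the HSPA1A and HSPA1B values was not tested.

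HSPH1, an HSP110, read 10617 and 9582 on orbital, 9255 and 8746 on global, 6118 and 6755 on lateral and 8076 and 6539 on medial arrays. It was higher in the layers by 0.48 (limma adjusted p = 0.0201) without overlap, a call lost without orbital layer replicate 1 (0.43) or lateral rectus replicate 1 (0.43) and with quantile normalization (0.10). HSPH1 probe set 208744_x_at on U133A was too dim to be tested there and went the other way. Its log2 values were 7.19 to 7.65 on layer arrays, at or near the floor, and 9.52 to 10.84 on whole rectus arrays. HSPA9 encodes mortalin, the mitochondrial HSP70. Its probe set 200691_s_at read 6490.5 and 8684 on orbital, 4122 and 5590.4 on global, 4875 and 5029.6 on lateral and 5276 and 6622 on medial arrays. Orbital was above global by 0.65 (0.00 to 1.29; limma adjusted p = 0.521) and another HSPA9 probe set, 200690_at, was below it by -0.83 (limma adjusted p = 0.415), both without overlap and neither called. The latter read 886 and 757 on orbital, 1450.2 and 1461 on global, 1054 and 1684 on lateral and 1936 and 1818 on medial arrays. HSPA5, the endoplasmic reticulum HSP70 known as BiP, gave 0.32 (-0.19 to 0.83; limma adjusted p = 0.274) in layers against whole rectus.

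HSPA12B, a distant HSP70 known from endothelium, had 2 probe sets on U133B. Probe set 234610_at read 567 and 562 on orbital, 226 and 1199.7 on global, 1099 and 2095 on lateral and 2030.4 and 2183 on medial arrays. It was lower in the layers by -1.72 (limma adjusted p = 0.0168) although 1 global array lay within the whole rectus range, and the call was lost with quantile normalization (-1.26) and without a filter. The endothelial marker VWF was lower in the layers too, at 198 to 286 against 500.5 to 757 on U133B, where it was too dim to be tested, and by -0.73 on U133A (limma adjusted p = 0.00724). Of 4 tested endothelial markers on U133A, 3 were lower in the layers, 2 of them called, and 1 was higher (0.43) and not called. The sum of all 6 overlapped there. The part of endothelial RNA in the HSPA12B values was not tested. Probe set 229172_at read 5464 and 4206, 3408 and 3029, 3801 and 2409.9 and 2863 and 324 in that order. Its lowest value was medial rectus replicate 2, and it gave 1.20 in the layers (-0.11 to 2.52; limma adjusted p = 0.125) and -1.65 in medial against lateral rectus (limma adjusted p = 0.991), neither called.

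The chaperonin class had 3 probe sets on U133A, all tested, and 3 on U133B, of which at most 1 was tested in a comparison. HSPD1, the mitochondrial chaperonin HSP60, had probe set 200807_s_at at 30384 and 36261 on orbital, 35292 and 41599 on global, 20725 and 20932 on lateral and 20096 and 23012 on medial arrays. Probe set 200806_s_at read 4149 and 3256, 4519.7 and 3299, 8477 and 9162 and 6258 and 9986 in the same order. Layers and whole rectus did not overlap in either, and the first was higher in the layers by 0.75 (limma adjusted p = 0.00109) and the second lower by -1.15 (limma adjusted p = 0.00066). With quantile normalization the first was 0.22 and not called. HSPD1 probe set 243845_at on U133B read 704 and 1337, 862 and 506, 835 and 864 and 1984 and 617, and layers and whole rectus overlapped. HSPE1, the partner that caps HSPD1, read 6912 and 7661 on orbital, 6683 and 6459.6 on global, 7427 and 5402 on lateral and 4883 and 6327 on medial arrays. It differed by 0.15 between the layers (-0.39 to 0.68), -0.19 between the rectus muscles (-0.78 to 0.40) and 0.22 between layers and whole rectus (-0.15 to 0.59), none called.

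The small heat shock proteins had 6 probe sets on U133A, all tested, with 1 called higher and 2 lower in the layers. They had 5 on U133B, 3 tested with 0 called higher and 1 lower (all probe sets: 48.7% called on U133A and 42.8% on U133B). HSPB6 (HSP20), abundant in striated and smooth muscle, had the same direction on both array types. On U133A it read 4517 and 2521 on orbital, 2719.8 and 3806 on global, 13473 and 12187 on lateral and 14345 and 13982 on medial arrays, a difference of -2.03 (-2.46 to -1.60; 4.09-fold lower in the layers; limma adjusted p = 3.46e-05). On U133B it read 7899 and 8539.6, 4803 and 8797, 20790.2 and 17952 and 25415 and 16712 in that order, a difference of -1.45 (-1.95 to -0.95; 2.73-fold lower; limma adjusted p = 0.000492). No layer array reached the lowest whole rectus array in either table, and both calls held under every alternative that was run. Between the layers HSPB6 gave 0.07 (-0.72 to 0.86) on U133A and 0.34 (-0.44 to 1.11) on U133B, with overlap and not called. The summed smooth muscle markers were higher on the layer arrays on U133A, whereas on U133B the 4 measured ones summed to 5286 to 6479 in the layers and 6953 to 11167 in whole rectus. The part of smooth muscle RNA in these differences was not tested.

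HSPB7, a small heat shock protein of heart and skeletal muscle, read 3003 and 2149 on orbital, 2857 and 2987 on global, 6118 and 4817 on lateral and 7394 and 5642 on medial arrays. It fell in the layers too, by 1.12 on the log2 scale (-1.53 to -0.71; 2.17-fold; limma adjusted p = 0.000686), without overlap. HSPB1 (HSP27), a stress-inducible actin and filament chaperone, read 14858 and 12773 on orbital, 5096 and 12771 on global, 5594 and 6568 on lateral and 5015 and 5095 on medial arrays. Orbital arrays and global layer replicate 2 were at about the same level, and global layer replicate 1 was as low as whole rectus. HSPB1 was higher in the layers by 0.93 (limma adjusted p = 0.0194), a call lost without global layer replicate 2 (0.84), orbital layer replicate 1 (0.76) or orbital layer replicate 2 (0.84) and with quantile normalization (0.58). Orbital was above global by 0.77 (-0.16 to 1.71; limma adjusted p = 0.589), not called. Without global layer replicate 2 it was 1.43 with a limma adjusted p of 0.0381, but this sets 2 orbital arrays against global layer replicate 1 alone, the low array, which is assumed to vary as the orbital arrays do.

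HSPB2, which binds the myotonic dystrophy kinase, read 6353 and 5185 on orbital, 4506 and 7512 on global, 5027 and 5448 on lateral and 4515 and 3616 on medial arrays, and the layers overlapped whole rectus. A U133B probe set annotated to HSPB2, C11orf52 and their readthrough, 238805_at, read 1884 and 1965, 681 and 896, 326 and 1666 and 243 and 974 in that order. Its orbital arrays were at least 2-fold above its global arrays, 1.30 (0.36 to 2.24; limma adjusted p = 0.508), and the difference was not called. HSPB3, which pairs with HSPB2, gave 0.39 (-0.19 to 0.96; limma adjusted p = 0.656) between the layers, its orbital arrays above its global ones. HSPB8, which works with BAG3 in clearing damaged filaments, had U133B probe set 233057_at at 2329 and 1019 on orbital, 1219.6 and 685 on global, 363 and 1051 on lateral and 1705 and 1981 on medial arrays. Medial lay above lateral by 1.57 (-0.14 to 3.29; limma adjusted p = 0.991), not called, and the layers overlapped. HSPB8 probe set 221667_s_at on U133A gave 0.45 in medial against lateral rectus, with overlap. In orbital against global layer it gave -0.39, and 233057_at gave 0.75. None of these differences was called. CRYAB, an alpha crystallin of the same protein family but no member of the gene names used here, read 69565 and 44332 on orbital, 26389 and 41950.3 on global, 47577 and 53790 on lateral and 57314 and 52059 on medial arrays. Orbital was above global by 0.74 without overlap (limma adjusted p = 0.490), again not called.

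**Figure D3:**
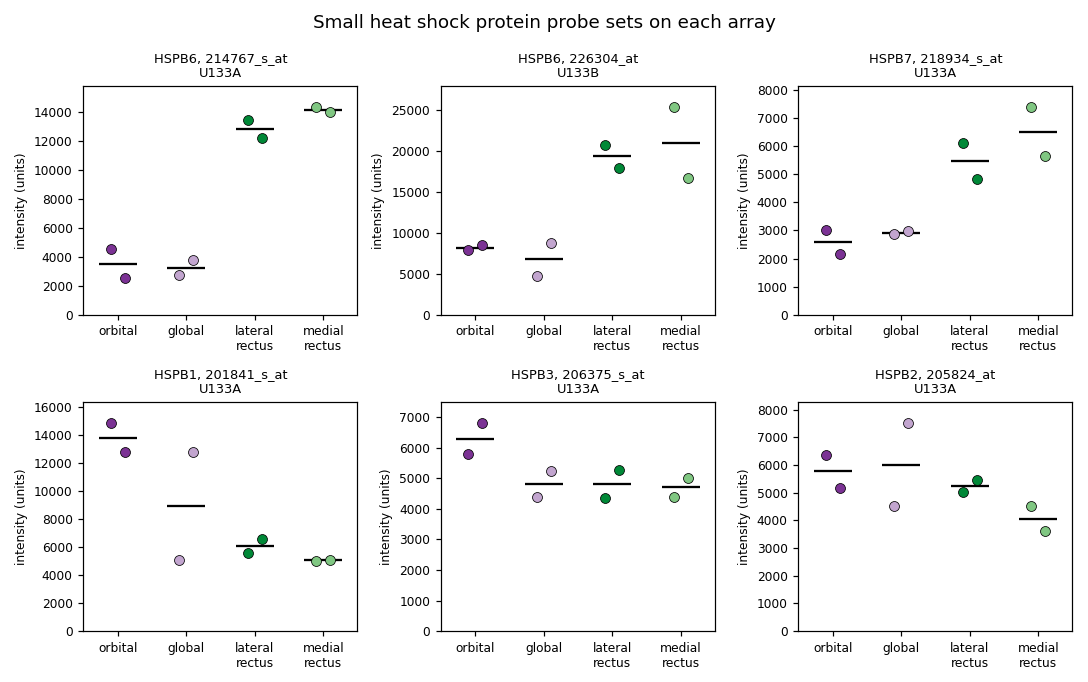
Intensity of 6 small heat shock protein probe sets on each array (points) with group means (bars). HSPB6 on both array types and HSPB7 are lower on all layer arrays than on all whole rectus arrays, and HSPB1 global layer replicate 1, at 5096, stands with whole rectus.

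The DNAJA class, cytosolic and mitochondrial J proteins of the general folding type, had 5 probe sets on U133A, with 1 called higher and 1 lower in the layers. It had 2 on U133B, both called higher (all probe sets: 48.7% called on U133A and 42.8% on U133B). DNAJA2 was higher in the layers on both array types. On U133B it read 8109 and 5877 on orbital, 9207 and 12303 on global, 3222 and 2236 on lateral and 2945 and 3116 on medial arrays, a difference of 1.59 (1.05 to 2.12; 3.01-fold; limma adjusted p = 0.000434) with no overlap. On U133A it read 2213 and 2549, 2884 and 2601, 1936 and 2217 and 1676 and 1364 in that order, with orbital layer replicate 1 just below lateral rectus replicate 2, a difference of 0.53 (limma adjusted p = 0.0429). That smaller call was lost without 6 of the 8 arrays in turn, with differences of 0.40 to 0.64.

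DNAJA4, a lipid-anchored J protein, had probe sets that parted. On U133B 225061_at read 31548 and 29012 on orbital, 32067 and 29459 on global, 14978 and 12794 on lateral and 12479 and 10792 on medial arrays, and on U133A 220395_at read 2344 and 1295, 1664 and 2508, 5004 and 4477 and 4646 and 4111. Without overlap in either, the first was higher in the layers by 1.27 (limma adjusted p = 0.000203) and the second lower by -1.27 (limma adjusted p = 0.000837). With quantile normalization the first was 0.13 and not called. DNAJA1 probe set 200881_s_at read 4165 and 2736 on orbital, 2254 and 3995 on global, 3573 and 3976 on lateral and 4038 and 6446 on medial arrays. DNAJA3, of mitochondria, read 1904 and 3101, 3059.9 and 3434, 3875 and 3530.0 and 4074 and 2443. Layers overlapped whole rectus in both, and neither was called in any comparison.

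The DNAJB class had 17 probe sets on U133A, 11 of them tested in layers against whole rectus with 1 called higher and 2 lower. It had 5 on U133B, 4 tested with 1 called each way (all probe sets: 48.7% called on U133A and 42.8% on U133B). DNAJB6 keeps proteins from aggregating at the Z-disc, and its mutations cause a limb-girdle muscular dystrophy. Probe set 209015_s_at read 1397 and 1381 on orbital, 562 and 657 on global, 1387 and 1819 on lateral and 1055 and 1505 on medial arrays. The global arrays were the lowest, at least 2-fold below both orbital arrays and below all whole rectus arrays, and orbital overlapped whole rectus. The layer difference of 1.19 (0.49 to 1.90; 2.29-fold; limma adjusted p = 0.266) was not called. Probe set 208810_at, annotated to TMEM135 and DNAJB6, read 2075 and 2593, 1087 and 1794, 863 and 931 and 1037 and 1056 in the same order. Orbital was above global here too (0.73; limma adjusted p = 0.526; not called), but both layers were above whole rectus, by 0.89 (limma adjusted p = 0.0149). That call was lost without orbital layer replicate 2 (0.72). A second probe set with both symbols, 208811_s_at, gave 0.17 (-0.38 to 0.73) in layers against whole rectus and was not called.

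DNAJB4, a J protein of striated muscle whose loss causes a myopathy, read 2078 and 2316 on orbital, 1989 and 3201 on global, 3376 and 4797 on lateral and 2755 and 3939 on medial arrays with probe set 203810_at. It was lower in the layers by -0.63 (limma adjusted p = 0.0328) with overlap, and the call was lost without 5 of the 8 arrays in turn, with differences of -0.78 to -0.50, with quantile normalization (-0.61) and without a filter. The other DNAJB4 probe set, 203811_s_at, read 2427 and 2942, 1301 and 1519.8, 2773 and 3154 and 1008 and 3024 in that order. Orbital was above global by 0.93 (0.32 to 1.53; limma adjusted p = 0.325), without overlap and not called.

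DNAJB11, a partner of BiP in the endoplasmic reticulum, read 9457 and 11617 on orbital, 6582 and 9382 on global, 3204 and 3809 on lateral and 4581 and 3454 on medial arrays of U133B. It was higher on every layer array, by 1.28 (2.43-fold; limma adjusted p = 0.000855). DNAJB12, a J protein of the endoplasmic reticulum membrane, read 1107 and 983 on orbital, 988 and 1429 on global, 1686 and 1782 on lateral and 1810.2 and 2209 on medial arrays with probe set 202867_s_at. It was lower in the layers by -0.74 (limma adjusted p = 0.0102) without overlap, -0.35 and not called with quantile normalization, and its other tested probe set, 202866_at, gave -0.08. DNAJB12 probe sets 202865_at and 214338_at were too dim to be tested there. For the former, log2 values were 7.19 to 8.43 on layer and 8.56 to 9.94 on whole rectus arrays. For the latter, they were 8.37 to 9.81 and 7.95 to 9.44. DNAJB13, a protein of sperm tails and cilia, read 2520.1 and 3253 on orbital, 3100.3 and 3899.6 on global, 5267 and 4118 on lateral and 4953 and 4778 on medial arrays of U133B. It was lower in the layers by -0.59 (limma adjusted p = 0.0407), a call lost without 6 of the 8 arrays in turn (-0.70 to -0.49), without a variance trend and with 4 group terms. DNAJB5 read 2081 and 1926 on orbital, 1448 and 1684 on global, 1659 and 2596 on lateral and 1518 and 1613 on medial arrays, and DNAJB8 read 79.5 and 1089, 295 and 1191, 1593 and 2344 and 1072 and 1107 on U133B. Neither was called in any comparison, and DNAJB1, the main heat-inducible partner of HSP70, gave 0.19 (-0.25 to 0.64) in the layers.

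**Figure D4:**
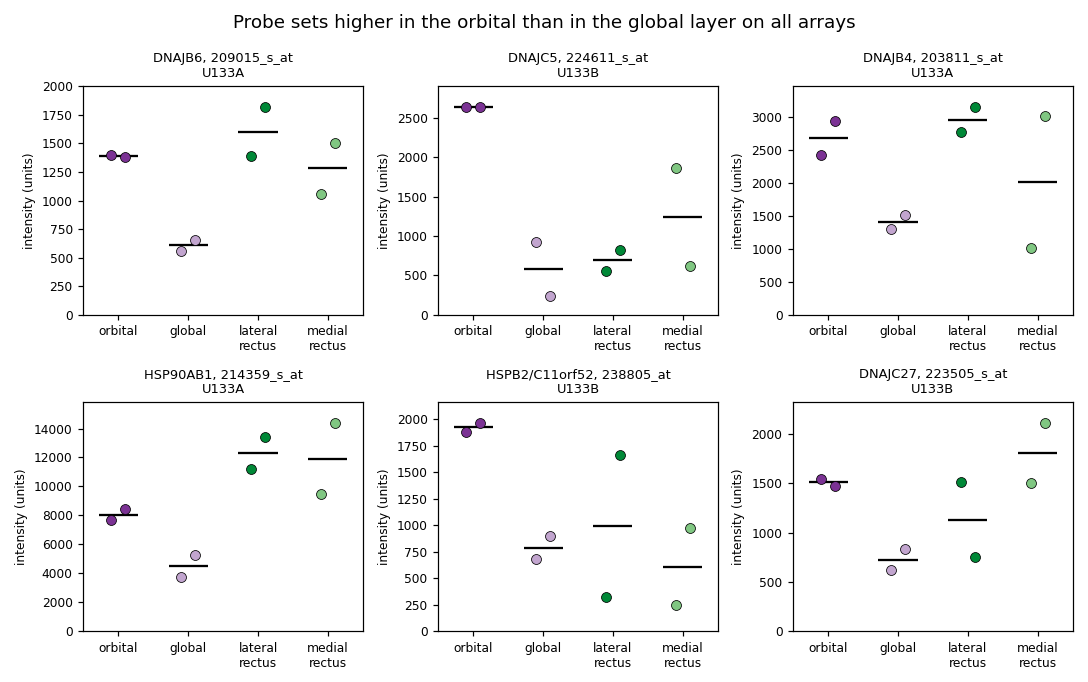
Intensity on each array (points) and group mean (bars) for 6 probe sets, picked after their values were seen as those with the smallest p-values among probe sets whose orbital arrays all lay above their global arrays. None was called between the layers, and whole rectus overlaps the orbital arrays for DNAJB6, lies above them for HSP90AB1 and below them for DNAJC5.

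The DNAJC class gathers J proteins with special sites or tasks. It had 28 probe sets on U133A, 13 of them tested in layers against whole rectus with 1 called higher and 1 lower. On U133B it had 41, 24 tested with 5 called higher and 4 lower (all probe sets: 48.7% called on U133A and 42.8% on U133B). DNAJC3 (p58IPK), DNAJC1 and DNAJC10 (ERdj5, a reductase) are partners of BiP. DNAJC3 probe set 225284_at read 8974 and 7453 on orbital, 7128 and 12271 on global, 1685 and 2130.3 on lateral and 1531 and 1173 on medial arrays. It was at least 2-fold higher on every layer array than on every whole rectus array, by 2.46 (1.90 to 3.01; 5.49-fold; limma adjusted p = 3.5e-05). DNAJC1 probe set 222620_s_at read 12137 and 13662, 16432 and 12958, 3500.2 and 2607 and 3221 and 2100.2 in that order, and was higher by 2.29 (4.89-fold; limma adjusted p = 1.64e-05). Its probe set 222621_at read 8969 and 6797, 7146 and 7650.0, 3966 and 1871 and 2634 and 1522 and was higher by 1.70 (limma adjusted p = 0.000681). Neither DNAJC1 probe set overlapped between layers and whole rectus.

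DNAJC10 probe set 225174_at read 7764 and 7643 on orbital, 9607 and 11545 on global, 4914 and 3711 on lateral and 4924 and 3651 on medial arrays, and was higher by 1.08 (limma adjusted p = 0.00192) without overlap. DNAJC27, a small GTPase with a J domain, read 4510.2 and 4467 on orbital, 7174 and 6857 on global, 1841 and 2156 on lateral and 2349 and 1977 on medial arrays with probe set 223504_at. It was higher by 1.44 (limma adjusted p = 0.000684), and its global arrays lay above its orbital ones (-0.64; limma adjusted p = 0.634; not called). These 5 calls and that of DNAJB11 held under every alternative that was run. Other probe sets of these genes were not called: DNAJC1 on U133A gave 0.33, DNAJC3 -0.34 and DNAJC10 -0.57. DNAJC27 223505_s_at read 1542 and 1477 on orbital, 619 and 829 on global, 1511 and 749 on lateral and 1503 and 2112 on medial arrays. It gave -0.40 in layers against whole rectus and, with the opposite layer order to its companion, 1.08 in orbital against global layer (limma adjusted p = 0.636), neither called.

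Lower in the layers was DNAJC21, a factor of ribosome assembly, whose probe set 235001_at read 744 and 949 on orbital, 856 and 729 on global, 2122 and 2074 on lateral and 2203 and 3838 on medial arrays. All layer arrays were at least 2-fold below all whole rectus arrays, with a difference of -1.60 (-2.30 to -0.90; limma adjusted p = 0.00235). Its probe set 238337_s_at read 8112 and 4973, 14315 and 10249, 14589 and 12085 and 12509 and 12717 in that order, and orbital was below global by -0.93 (-1.69 to -0.17; limma adjusted p = 0.564), not called. DNAJC18 read 679 and 430 on orbital, 1058 and 815 on global, 1667 and 3137 on lateral and 796 and 3267 on medial arrays with probe set 227169_at, a difference of -1.44 (limma adjusted p = 0.032). The lateral and the medial pair each varied widely, medial rectus replicate 1 overlapped the layers, and the call was lost without 5 of the 8 arrays in turn (-1.86 to -1.18), with quantile normalization (-1.06) and without a filter. DNAJC18 probe set 238115_at gave -0.38 and was not called. Probe set 227166_at was too dim to be tested there and leaned the other way. Its log2 values were 8.80 to 10.23 on layer and 7.77 to 9.33 on whole rectus arrays. DNAJC22 read 2246 and 1354 on orbital, 1629.6 and 1665 on global, 3113 and 2965 on lateral and 3573 and 2332 on medial arrays. It was lower by -0.81 (limma adjusted p = 0.0275) without overlap, a call lost without 5 of the 8 arrays (-0.94 to -0.70) and with quantile normalization (-0.56).

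DNAJC15, of the mitochondrial inner membrane, had probe set 218435_at at 944 and 1322 on orbital, 1126 and 2137 on global, 875 and 866 on lateral and 123 and 608 on medial arrays of U133A. The low value of medial rectus replicate 1 was below the floor. On U133B, 227808_at read 1259 and 1494, 1558 and 1246, 2522 and 1872 and 2257 and 2755 in that order. The first was higher in the layers by 1.37 (limma adjusted p = 0.0479) and the second lower by -0.75 (limma adjusted p = 0.0402), and these calls were lost without 6 and 7 of the 8 arrays in turn (0.77 to 1.63 and -0.86 to -0.67). A further tested DNAJC15 probe set on U133B, 230305_at, overlapped and was not called. Its log2 values were 12.07 to 12.36 on layer arrays, 12.16 and 12.13 on lateral and 12.14 and 10.62 on medial arrays. DNAJC4 probe set 213919_at read 608 and 595 on orbital, 687 and 562 on global, 989 and 925 on lateral and 942 and 1529 on medial arrays. It was lower in the layers by -0.81 (limma adjusted p = 0.0275), a call lost without 4 of the 8 arrays (-0.88 to -0.64) and with quantile normalization (-0.22). A U133B probe set of DNAJC4, 228622_s_at, read 969 and 380, 971 and 1198, 452 and 497 and 1654 and 1612. Its medial arrays were at least 2-fold above its lateral arrays, 1.79 (0.08 to 3.49; limma adjusted p = 0.991), and this was not called.

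DNAJC5 encodes cysteine string protein, a chaperone of synaptic vesicles that is also found outside nerve endings. Probe set 224611_s_at read 2636 and 2643 on orbital, 930 and 236 on global, 562 and 828 on lateral and 1860.3 and 621 on medial arrays. The orbital arrays were above all others and at least 2-fold above the global ones, which differed widely between themselves. The difference of 2.49 had an interval of 0.98 to 4.01 and was not called (limma adjusted p = 0.409). The other DNAJC5 probe sets, 224612_s_at and 224613_s_at, were too dim to be tested between the layers, and in both orbital lay below whole rectus. For 224612_s_at the log2 values were 8.38 and 8.52 on orbital, 7.77 and 8.22 on global and 8.65 to 10.86 on whole rectus arrays. For 224613_s_at they were 8.47 and 7.77 on orbital and 9.11 to 10.90 on whole rectus arrays, with both global arrays at the floor. DNAJC19, of the mitochondrial import motor, read 21472 and 22638 on orbital, 17623 and 20727 on global, 21925 and 22767 on lateral and 20688 and 12137 on medial arrays. DNAJC30 read 3729 and 3390.1, 5997 and 4359, 3567 and 1095 and 3696 and 5700.4 in that order, and DNAJC9, a histone chaperone, 143 and 659, 274 and 173, 1348 and 1751 and 407 and 1000.3. None of these 3 was called in any comparison, and DNAJC30 had its medial arrays above its lateral ones (1.22; limma adjusted p = 0.991). Between the layers, DNAJC4 206781_at, DNAJC24, which acts in the diphthamide pathway, and DNAJC28 were lower on both orbital arrays by -0.90, -0.93 and -0.99 (limma adjusted p = 0.385, 0.462 and 0.472), none called.

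Probe sets of one annotation often parted in layers against whole rectus. Of 30 member annotations with several tested probe sets, 20 (66.7%) had probe sets on both sides of 0, against 2302 of 4069 (56.6%) over all annotations. For 4 of the 30 (13.3%; 15.6% of all), HSPD1, DNAJA4, DNAJC15 and HSPA8 with its small nucleolar RNAs, 1 probe set was called higher and another lower. With quantile normalization each of these 4 kept 1 of its opposing calls and lost the other. The median range within an annotation was 1.06 on the log2 scale, and 1.16 over all annotations. In 22 of the 30 at least 1 probe set was called, and only in DNAJA2 and HSPB6 were all tested probe sets called in the same direction. Between the layers, 18 of 30 annotations (60%) had probe sets on both sides of 0, against 1886 of 3705 (50.9%) over all annotations, with a median range of 0.46 against 0.45.

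**Figure D5:**
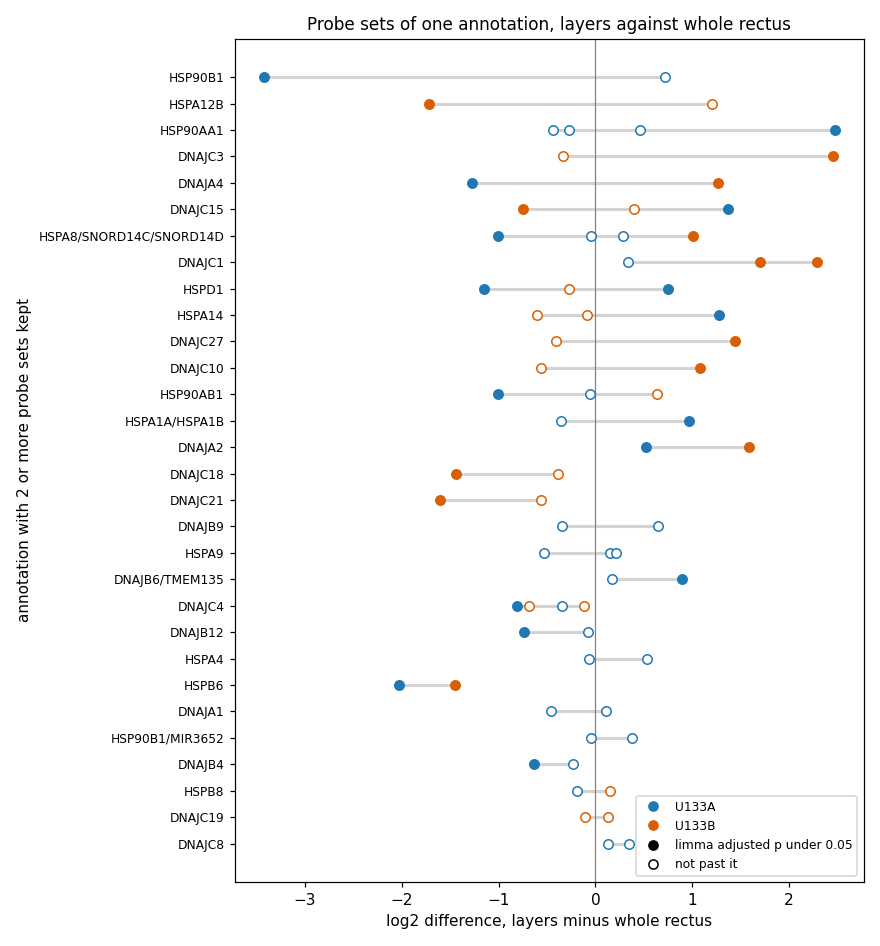
Log2 differences between layers and whole rectus for each probe set (points) of the 30 chaperone annotations with several tested probe sets, ordered by their range, with called probe sets filled. HSP90B1 spans 4.14, the widest range, and HSPB6 and DNAJA2 are the annotations with all points filled on one side.

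Genes that work with these chaperones were taken from lists chosen by function, each gene by its brightest probe set with 1 symbol in a table. In orbital against global layer and in medial against lateral rectus, 0 genes of any list were called. In layers against whole rectus on U133A, 5 of 13 tested genes of the cytosolic chaperonin and prefoldin list were called higher and 0 lower: CCT8 (1.81), CCT3 (1.46), CCT7 (1.44), CCT4 (0.92) and CCT2 (0.72), subunits of the ring that folds actin and tubulin. Of these, CCT4 and CCT2 were not called with quantile normalization. The one tested gene of the list on U133B was CCT4 again, which there was not called and went the other way (-0.64; limma adjusted p = 0.0696). Of 6 mitochondrial proteases and folding factors, 3 were higher, CLPP (1.27), LONP1 (1.23) and CLPX (0.84), and 0 lower. On U133B, CLPX was higher again (1.33), and YME1L1, the other gene tested, went the other way and was not called (-0.94; limma adjusted p = 0.0539). The CLPP call was lost without 6 of the 8 arrays in turn (down to 0.92), without a filter, without a variance trend and with 4 group terms. Over all probe sets 48.7% were called, 18.7% higher, but list genes were taken by their brightest probe set, and calls of bright probe sets were more often higher: above the 75th percentile, 59.5% of all calls on U133A were higher, against 38.3% above the median.

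On U133A, 16 genes of the endoplasmic reticulum and its unfolded protein response were tested. In the layers 5 were called higher and 5 lower (all probe sets: 18.7% higher and 30.1% lower). Higher were HERPUD1 (1.74), a degradation factor, CANX (0.75), PDIA6 (0.50), SEL1L (0.46) and ATF4 (0.44), and lower were the sensor ERN1 (-2.20), the transcription factors XBP1 (-1.18) and DDIT3 (-1.08), the lectin chaperone CALR (-0.86) and PPP1R15A (-0.75). On U133B 2 of 4 were higher, CANX (1.12) and ATF6 (0.94). ERN1 went the other way there, reading 1913 to 2487 on layer and 978 to 1616 on whole rectus arrays (0.74; limma adjusted p = 0.0522), not called. Quantile normalization ended the calls of CANX, SEL1L, ATF4, XBP1, PPP1R15A and ATF6 and turned CANX on U133B to -0.10. With single arrays left out in turn, SEL1L and ATF4 each lost their call 6 times of 8 and PDIA6 3 times. Nucleotide exchange factors and other HSP70 regulators had 2 higher and 1 lower of 9 on U133A, BAG3 (1.00), GRPEL1 (1.43; not called without a filter) and HYOU1 (-1.12), and 3 higher and 1 lower of 5 on U133B (all probe sets: 20.5% higher and 22.3% lower). Of those on U133B, BAG4 (1.24) stayed called with quantile normalization, while STUB1 (1.20), GRPEL2 (0.83) and BAG2 (-0.92) did not. STUB1 was also lost without a filter, without a variance trend and without 4 of the 8 arrays in turn. The HSP90 co-chaperone list had 3 higher and 1 lower of 11 on U133A, NUDC (0.90), PTGES3 (0.83), CACYBP (0.54) and TRAP1 (-0.82), and 5 higher and 1 lower of 7 on U133B. TRAP1 is itself the HSP90 of mitochondria and not a co-chaperone, though it was on that list. Quantile normalization ended the calls of PTGES3 (0.34) and CACYBP (0.20), and the latter was also lost without a filter, without a variance trend and without 5 of the 8 arrays in turn. Of the 5 higher on U133B, quantile normalization ended the calls of 4: UNC45B (1.85), the muscle co-chaperone for myosin folding, SMYD1 (0.70), a muscle methyltransferase, SUGT1 (1.41) and FKBP5 (0.81). FKBP5 was also lost without a filter, without a variance trend and without 6 of the 8 arrays in turn. The other gene called higher on U133B, AHSA2P, read 3081 to 6683 on layer and 366 to 1763 on whole rectus arrays. CHORDC1 of the same list went the other way there, at 265 to 1330 and 2321 to 2788. Of 2 tested genes of the heat shock factor list, HSBP1 was higher (0.70) and HSF2BP lower (-1.17), the latter not called with quantile normalization. Unless stated otherwise, the values for these lists are log2 differences called by limma at an adjusted p under 0.05.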

How the data were processed

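Intensity values of rhesus RNA on human U133A and U133B arrays were used as deposited, 1 linear value per probe set and array. Equal trimmed means in the deposited columns show that the authors scaled each array. The summary software was not given in the sources used here. T7 amplification of layer RNA is stated per the labels. Arrays were grouped by title, and nothing pairs them across groups.

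Each array was scaled to a common mean after trimming 2% at each end. A floor was set at the pooled 20th percentile (146.5 on U133A, 218.5 on U133B) before taking log2. Probe sets with a mean log2 value over the arrays compared at or above that of the pooled median were tested across all genes in each table with limma 3.58.1 (R 4.3.3; lmFit, eBayes with trend, two-sided, Benjamini-Hochberg adjustment), without the 68 control probe sets of each table. The test was checked on simulated data. Figures used matplotlib 3.10.9 and pandas 2.3.3 under Python 3.11.15. Platform annotation gave 1 symbol to 19071 U133A and 15432 U133B probe sets, several to 1043 and 554, and none to 2169 and 6659.

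Members and gene lists were chosen with earlier results of these data known. Values per array are given for members called in any comparison, for 2 genes per class chosen by their level in whole rectus, for up to 2 genes per class and comparison with the smallest p, each gene standing by its brightest probe set in a table, and for members whose arrays lay 2-fold or more apart in each pairing of a layer or rectus comparison. Other members named were singled out after their values were seen. Alternatives were quantile normalization, floors at the 5th and 40th percentile, omission of the filter, filters at the 75th percentile or on mean linear intensity, variances without a trend, all groups in one fit or as 4 terms, replicate numbers as a block, and each array left out.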

Additional observations from a re-analysis of the deposited data

Results flagged for a closer look

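Among the members named in layers against whole rectus, 74 groups of 4 arrays were searched, by Dixon's criterion at the 95% level, for an array far from the other 3 on the log2 scale, and 7 had one. By its construction that criterion marks about 1 in 20 groups of normal values by chance, and the members searched had been chosen by their values. In the layers, global layer replicate 1 on U133A was the far array for HSPB1, which read 5096 there against 12771 to 14858 on the other layer arrays, and for HSP90AA1 211969_at (21837 against 36526 to 38283). It was so for HSP90B1 216450_x_at (671 against 75.5 to 153) only because both orbital arrays were raised to the floor, and without the floor 6 of the 7 groups had a far array. HSPB7 read 2149 on orbital layer replicate 2 against 2857 to 3003. In whole rectus, medial rectus replicate 2 was the far array for DNAJC4 213919_at on U133A (1529 against 925 to 989) and for DNAJC21 235001_at on U133B (3838 against 2074 to 2203). HSPA12B 234610_at read 1099 on lateral rectus replicate 1 against 2030 to 2183. The causes were not tested.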

How the results depend on the processing

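The number of members called stayed within 1.5 times its main value under all alternatives in layers against whole rectus, at 14 to 23 on U133A and 13 to 19 on U133B, and at 14 to 18 and 13 to 17 with each array left out. It stayed at 0 in medial against lateral rectus on both array types and in orbital against global layer on U133B. In orbital against global layer on U133A it was 0, except for 1 without global layer replicate 2, where 1 global array stood alone (range 0 to 1 with each array left out). With the replicate block it was 0 on both array types, where 91 and 26 of all probe sets were called; same-numbered layer arrays share only a number, and their deviations correlated at 0.26 and 0.13 across probe sets. Titles number only some rectus arrays, so no block was fitted there. The filter on mean linear intensity, chosen after both versions had been seen, called 21 and 18 members.

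Of the 36 calls, 12 were lost without at least 1 array and 12 with quantile normalization, which moved the median of all probe sets from -0.18 to 0.00 on U133A and from -0.21 to -0.04 on U133B. Signs turned in values with no call or with a lost one: under quantile normalization HSPE1 became -0.078, the HSPA8 probe set 224187_x_at -0.14, FKBP5 -0.047, SMYD1 -0.10 and CANX on U133B -0.10. In medial against lateral rectus with each array left out, HSPE1 ranged from -0.42 to 0.041 and probe set 200599_s_at from -0.41 to 0.18, turning without lateral rectus replicate 1 and lateral rectus replicate 2, respectively. Without a filter, the calls of HSPA1A and HSPA1B 200799_at, HSPB1, DNAJB4, DNAJC15 218435_at, DNAJC18 and HSPA12B were lost. The causes were not tested. Every probe set was counted, so no choice of 1 per gene bears on these counts. With 2 arrays per group, small differences are beyond reach.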
